A study of Mus musculus with 2 samples.

Results

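The genes described here mark the conducting airways of the lung: 3 secretoglobins (Scgb1a1, Scgb3a1 and Scgb3a2), other genes of club cells and of the proximal airway lining (Cyp2f2, Cldn10, Sox2 and Aldh1a1) and genes of basal cells (Trp63, Krt5 and Krt15). They were chosen by name, with earlier results of these data known. Every probe set that the platform annotation assigns to exactly 1 of these 10 genes was taken. This gave 13 of 34945 probe sets that name a single gene, or 10 of 18193 genes, with 4 probe sets for Trp63 and 1 for each other gene. The data are 2 Affymetrix arrays of whole mouse lung at E15.5 (the embryonic day), 1 hybridised with a pool of 4 RNA samples of wild type lungs and 1 with a pool of 4 RNA samples of TAZ-deficient lungs, and the animals were littermates. TAZ is a transcriptional coactivator of the Hippo pathway that works through TEAD transcription factors, and its gene is Wwtr1. The sources used here give neither the way TAZ was inactivated, nor the cells it was removed from, nor the strain. In every pair of values below the wild type pool comes before the TAZ-deficient pool. The lung marker genes Sftpc, surfactant protein C, and Nkx2-1, a transcription factor of lung endoderm, were above background in both pools, at 4142.5 and 4121.5 and at 61.1 and 60.6.

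The lining of the mouse airway is laid down from SOX2-expressing endoderm, which lies proximal to the SOX9-expressing tips of the branching lung. Club cells are its secretory cells. They release secretoglobins, carry cytochromes P450 that metabolise inhaled compounds, and are set apart from ciliated cells by Notch signalling. Basal cells are stem cells that express p63 and keratins and lie mainly in the trachea and the largest airways of the mouse.

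Each group is 1 array, so no difference below has a test, an error between replicates or a replicate check. Signals are linear intensities as deposited. The median of all values, 15.2 signal units, served as the floor, and a gene counts as measured when it read above 15.2 on either array. A fold with 1 of its values under the floor is written as "at least", and no fold is given where both were. The disagreement between the 2 brightest probe sets of a gene, both above the floor on both arrays, gave an SD of 0.19 on the log2 scale over 5201 genes, and 0.12 over the 2330 of them with all values above 106.3. Over the other 2871 genes the SD was 0.23. This probe set SD holds no variation between embryos, pools or arrays. Wwtr1 followed the labels of the arrays, its 3 probe sets reading from 176.9 to 791.2 in wild type and from 3.9 to 11.3 in the TAZ-deficient pool; whether its probes lie in the part that was disrupted is not stated.

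In the TAZ-deficient pool Cyp2f2 and Scgb3a2 had the lowest ratios of the measured members, followed by Scgb1a1, which was near the floor. Cldn10, Aldh1a1 and Sox2 were near wild type. Scgb3a1 and the basal cell genes were below the floor in both pools. Of the 10 genes 6 were measured, as were 12032 of all 18193 genes. Of the 6 measured members, 5 read lower in the TAZ-deficient pool, against 52.9% of all 12032 measured genes. At least 1.2-fold lower were 3 of the 6 (Cyp2f2, Scgb3a2 and Scgb1a1), where 10.6% of all measured genes were that much lower (2 of the 6 under loess, where Scgb1a1 was 1.17-fold lower), and 0 were at least 1.2-fold higher, where 8.01% of all measured genes were. No member's fold, or its lower bound for Scgb1a1, reached 1.5, and among all measured genes 1.46% were at least 1.5-fold lower and 1.26% at least 1.5-fold higher. The median log2 ratio of the 6 genes was -0.22, and that of all measured genes was -0.01. Because the members were chosen with earlier results of these data known, these comparisons with all measured genes are descriptions only. In RNA of whole lung, fewer cells of a type and less RNA per cell cannot be told apart.

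**Figure D1:**
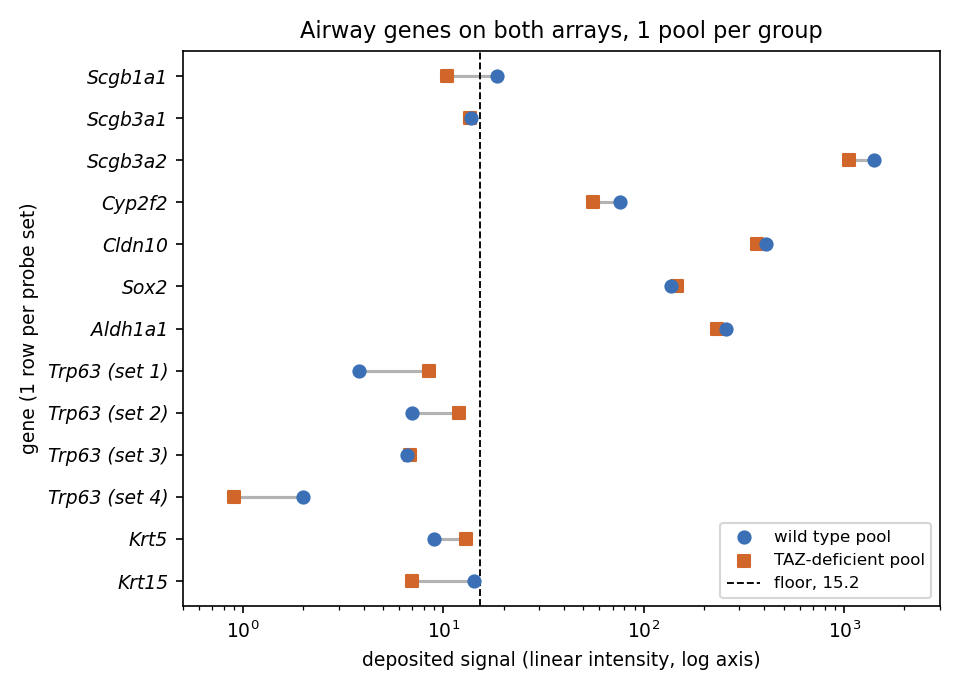
Deposited signal of the 13 probe sets (linear intensity on a log axis), 1 row per probe set, with a circle for the wild type pool and a square for the TAZ-deficient pool; the dashed line is the floor of 15.2. Scgb3a2, Cyp2f2, Cldn10, Sox2 and Aldh1a1 lie above the floor in both pools, Scgb1a1 only in wild type, and all Trp63, Krt5, Krt15 and Scgb3a1 points lie below it.

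Scgb3a2 encodes a small secreted protein of club cells that appears in the embryonic airway earlier than Scgb1a1 and is a target of the transcription factor NKX2-1. It read 1408.5 in wild type and 1057.4 in the TAZ-deficient pool, 1.33-fold lower, a log2 ratio of -0.41. The size of that ratio is over 3 times the probe set SD of 0.12 for bright genes. Since Scgb3a2 has a single probe set, no second probe set could be set beside it. Of the 622 other measured genes whose mean log2 signal lay within 0.5 of that of Scgb3a2, 0 had a ratio as low. The same held for the 550 other genes that were as bright or brighter, the lowest of which, Fhl1, was 1.29-fold lower. Among all measured genes, dim ones included, 4.01% had a lower ratio.

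Scgb1a1, the secretoglobin that is the major product of mature club cells, was near the floor at this stage. It read 18.5 in wild type and 10.4 in the TAZ-deficient pool, at least 1.22-fold lower. Its wild type signal was thus only slightly above the floor, and among 1257 other genes of like mean signal 23.5% were as low or lower. Scgb3a1, a related secretoglobin, read 13.7 and 13.5, below the floor in both pools. Of the 3 secretoglobins only Scgb3a2 was therefore clear of background on both arrays, and the family has no shared direction that these arrays could show.

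Cyp2f2, the club cell cytochrome P450 that activates naphthalene, had the lowest ratio of the measured members. It read 76.4 in wild type and 55.9 in the TAZ-deficient pool, 1.37-fold lower, a log2 ratio of -0.45. Of 1999 other genes of like signal, 3.55% had a ratio as low. Its fold was thus like that of Scgb3a2, but more genes of its own signal reached it.

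Cldn10, a claudin of tight junctions that marks cells of the club lineage, read 406.4 and 368.9, 1.10-fold lower. Aldh1a1, a retinaldehyde dehydrogenase of the airway lining, read 257.8 and 232.1, 1.11-fold lower. Sox2, the transcription factor that specifies the proximal airway, read 136.2 and 146.2, 1.07-fold higher, and was the only measured member with a positive ratio. None of these 3 differences stood out among genes of like signal. For Cldn10 12.97% of such genes were as low, for Aldh1a1 16.8%, and for Sox2 20.5% were as high. Beside the probe set SD of 0.12 for bright genes, the log2 ratios of -0.14 and -0.15 were slightly larger in size and that of Sox2, 0.10, was smaller.

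**Figure D2:**
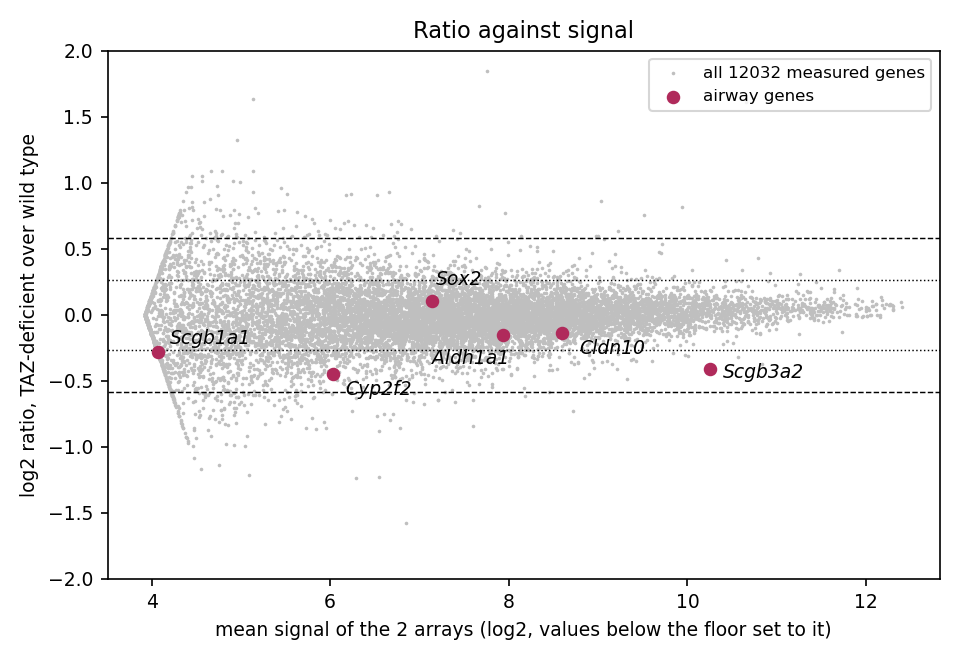
Log2 ratio (TAZ-deficient over wild type) against the mean log2 signal of both arrays, with a grey point for each of 12032 measured genes and a red point for each measured airway gene; dotted and dashed lines mark 1.2-fold and 1.5-fold, and 4 genes lie outside the plotted range. Scgb3a2 lies below all grey points of its own signal, while Sox2, Aldh1a1 and Cldn10 lie within the cloud.

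The basal cell genes were not detected above the floor. Trp63, which encodes the basal cell transcription factor p63, read 3.8, 7.0, 6.6 and 2.0 at its 4 probe sets in wild type, and 8.5, 12.0, 6.8 and 0.9 at the same probe sets in the TAZ-deficient pool. Krt5, the basal cell keratin, read 9.0 and 12.9. Krt15, another keratin of basal cells, read 14.2 and 7.0. These values are all below 15.2, the median of all values, which is not a detection call. The 3 genes were thus not clear of background in these lungs, and their differences are not interpreted. Among all 18193 genes, 6161 were not measured. Of 16 further basal cell genes with a probe set, 8 were below the floor (Krt14, Krt17, Aqp3, Itgb4, Dapl1, Col17a1, Dsc3 and Sfn). Ngfr (20.7 and 19.5), Dlk2 (18.2 and 14.3) and Trim29 (8.4 and 16.8), named after their values were seen, were near it.

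Promoter sequence was looked up in RefSeq (GRCm38.p6) for the members, and 6 of the 10 matched, with 8 annotated starts: Sox2, Cyp2f2, Scgb3a1, Krt5, Cldn10 and Aldh1a1. Within the 250 bases before each start, the TEAD core GGAATG, read on the other strand as CATTCC, was found in 1 of the 8 windows, that of the upstream start of Aldh1a1, and 12.6% of all 32851 promoter windows of this length hold it. The NKX2 core CACTTG, read on the other strand as CAAGTG, was found in 5 of the 8 windows, at Cyp2f2, Scgb3a1, both starts of Cldn10 and the downstream start of Aldh1a1, and 11.6% of all windows hold it. No window of the members held both cores. A match of letters is a description of the window only. The windows of Cyp2f2 and of the downstream start of Cldn10 are given next as examples, with the NKX2 core in capitals. They were picked after the ratios were seen, and whether the core goes with the ratio was not tested. Cyp2f2 lies on the plus strand at chr7:27119705-27119954 and the Cldn10 start on the plus strand at chr14:118854700-118854949.
Cyp2f2: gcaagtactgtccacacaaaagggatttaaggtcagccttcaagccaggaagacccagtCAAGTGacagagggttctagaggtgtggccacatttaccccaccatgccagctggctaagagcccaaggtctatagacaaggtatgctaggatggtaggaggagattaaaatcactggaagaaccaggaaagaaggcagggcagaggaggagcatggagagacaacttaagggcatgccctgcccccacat
Cldn10: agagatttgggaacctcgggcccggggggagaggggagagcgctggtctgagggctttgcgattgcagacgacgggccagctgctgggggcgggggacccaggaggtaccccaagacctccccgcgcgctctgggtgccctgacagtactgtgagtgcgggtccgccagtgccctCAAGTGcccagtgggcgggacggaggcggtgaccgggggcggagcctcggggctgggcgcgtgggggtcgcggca

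Aldh1a1 has a near copy next to it. Aldh1a7, another aldehyde dehydrogenase gene, is its neighbour on chromosome 19 with 0 protein-coding genes between. The 120 bases before the downstream start of Aldh1a1 (plus strand, chr19:20601848-20601967) and before the start of Aldh1a7 (minus strand, chr19:20727557-20727676) are 90.8% identical and share a run of 65 bases, given in capitals to show how alike the genes are.
Aldh1a1: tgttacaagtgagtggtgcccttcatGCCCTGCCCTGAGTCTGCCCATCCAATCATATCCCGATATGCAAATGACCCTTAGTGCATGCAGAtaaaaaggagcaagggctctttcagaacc
Aldh1a7: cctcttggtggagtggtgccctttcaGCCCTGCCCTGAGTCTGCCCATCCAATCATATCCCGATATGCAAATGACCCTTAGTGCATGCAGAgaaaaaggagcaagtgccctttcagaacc
The upstream start of Aldh1a1 shares 55.8% with the same stretch of Aldh1a7, with no shared run over 8 bases. The probe sets of Aldh1a1 and Aldh1a7 had log2 ratios of opposite sign, -0.15 and 0.18. Both are small beside the probe set SD of 0.12 for bright genes, which holds no variation between pools or arrays. Aldh1a7 read 1510.2 and 1705.4, 1.13-fold higher, while Aldh1a1 was 1.11-fold lower. Signal shared between such copies was not tested. Aldh1a2, the retinaldehyde dehydrogenase of the mesoderm, read 215.9 and 235.4, 1.09-fold higher, and Aldh1a3 read 7.3 and 5.8, below the floor.

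Other genes of club and secretory cells were lower as well. Of 27 such genes, 24 had a probe set naming them alone and 9 were measured, where 12032 of all 18193 genes were. Of the 9, 8 read lower and 6 were at least 1.2-fold lower, with a median log2 ratio of -0.43. Among all measured genes 52.9% were lower and 10.6% at least 1.2-fold lower. Upk3a, a uroplakin found in a subset of club cells, was at least 1.5-fold lower, at 35.3 and 15.7 (2.25-fold), the lower value being close to the floor. The following were chosen after their values were seen. Lypd2, which is expressed in secretory cells, read 108.6 and 77.1 (1.41-fold lower). The cytochromes P450 Cyp2s1 and Cyp4b1 read 56.2 and 40.4 (1.39-fold lower) and 51.9 and 48.8 (1.06-fold lower). Hp, haptoglobin, was 1.38-fold lower at 41.2 and 29.9. Foxa3, a forkhead factor of secretory cells, was at least 1.35-fold lower at 20.5 and 13.9. Cbr2, the carbonyl reductase of club cells, read 79.1 and 63.0, 1.26-fold lower. Fmo2, a flavin-containing monooxygenase, had 4 probe sets above the floor, all lower in the TAZ-deficient pool, the brightest at 43.7 and 38.1 (1.15-fold) and the one furthest apart at 38.1 and 6.4. Gsto1, a glutathione transferase, was the exception at 507.7 and 564.6, with a second probe set at 315.0 and 310.2.

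Most of these 9 genes were dim, and their counts were not set beside those of genes of like signal. When the floor was raised to the 75th percentile, 106.3, Lypd2 and Gsto1 alone were left and their median log2 ratio was 0.06. The TAZ-deficient value of Lypd2, 77.1, was set to 106.3 there, which shrinks its ratio, so the sign of this median is not a result about the list. The mucins, the goblet cell factor Spdef, Agr2, Bpifa1, Ltf, Pigr and 8 further genes of the list were below the floor in both pools. The members and this list together gave 15 measured genes, of which 13 were lower, 9 at least 1.2-fold lower and 0 at least 1.2-fold higher. Their median log2 ratio was -0.33. The shares of all measured genes were 52.9%, 10.6% and 8.01%. Both lists were chosen with earlier results of these data known, so these counts are descriptions only.

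The further basal cell genes that were measured did not share a direction. Among all measured genes 52.9% were lower and 46.8% higher, 10.6% at least 1.2-fold lower and 8.01% at least 1.2-fold higher. Of 8 measured basal cell genes, 3 were lower and 5 higher, with a median log2 ratio of 0.05. The brightest were Snai2 (1974.8 and 2131.7), a transcription factor that mesenchyme also expresses, and the integrin subunit Itga6 (901.8 and 959.5). Perp, a desmosomal membrane protein, read 175.4 and 125.8 (1.39-fold lower) and was the only one of the 8 whose fold, or lower bound of it for Dlk2 and Trim29, reached 1.2; it was chosen after its value was seen.

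Transcription factors of the lung epithelium were mostly at or above wild type signal, with a median log2 ratio of 0.07. Of 17 measured, 12 were higher, against 46.8% of all measured genes. At least 1.2-fold higher were 4 of the 17, against 8.01%, and 1 was at least 1.2-fold lower, against 10.6%. Sox21, a SOX factor of the proximal airway, read 22.4 and 45.0 (2.01-fold higher), and its second probe set was below the floor. Irx1, an Iroquois homeobox gene, read 118.2 and 178.6 (1.51-fold higher). Foxa2, which acts with NKX2-1 at club cell genes and is named here after its value was seen, read 483.0 and 641.0 (1.33-fold higher). Tfcp2l1, named after its values were seen, read 13.4 and 22.0 (at least 1.45-fold higher). Grhl1, a grainyhead-like factor also named after its value was seen, was the 1 gene of the list at least 1.2-fold lower (22.7 and 17.3, 1.31-fold). Nkx2-1 itself read 61.1 and 60.6, a ratio that was above 0 under quantile normalization and loess. In the Notch pathway of airway cell choice, 9 of 9 genes were measured, with a median of -0.04. Of these, 1, the ligand Jag2 (55.1 and 45.2), was at least 1.2-fold lower and 0 were higher by as much. The shares of all measured genes were 10.6% and 8.01%. Jag2 was named after its value was seen, and its second probe set was less than 1.2-fold lower, at 41.7 and 38.3 (a log2 ratio of -0.12). The brightest Notch pathway genes, the effector Rbpj and the ligand-modifying enzyme Pofut1, read 369.4 and 393.9, and 273.1 and 254.1.

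Genes expressed throughout the epithelium were close to wild type. In the list of 18 general epithelial genes all were measured and 13 were higher, against 46.8% of all measured genes. Of the 18, 0 were 1.2-fold different either way, where 10.6% of all measured genes were lower and 8.01% higher by as much. The median log2 ratio of the list was 0.04. Relative to that median, Scgb3a2 was lower by a log2 difference of -0.46 and Cyp2f2 by -0.49, whereas Cldn10 differed by -0.18, Aldh1a1 by -0.19 and Sox2 by 0.06. Distal epithelial genes had a median of 0.13, with 8 of 11 higher and 0 at least 1.2-fold different. Sox9, the factor of the distal tips and counterpart of Sox2, read 132.2 and 155.7, named after its value was seen. Its other probe set above the floor read 128.0 and 132.3, a log2 ratio of 0.05. Of 8 measured type 1 cell genes 7 were lower, 3 of them at least 1.2-fold, against 52.9% and 10.6% of all measured genes. Their median was -0.18, so that lower values were not particular to airway genes.

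**Figure D3:**
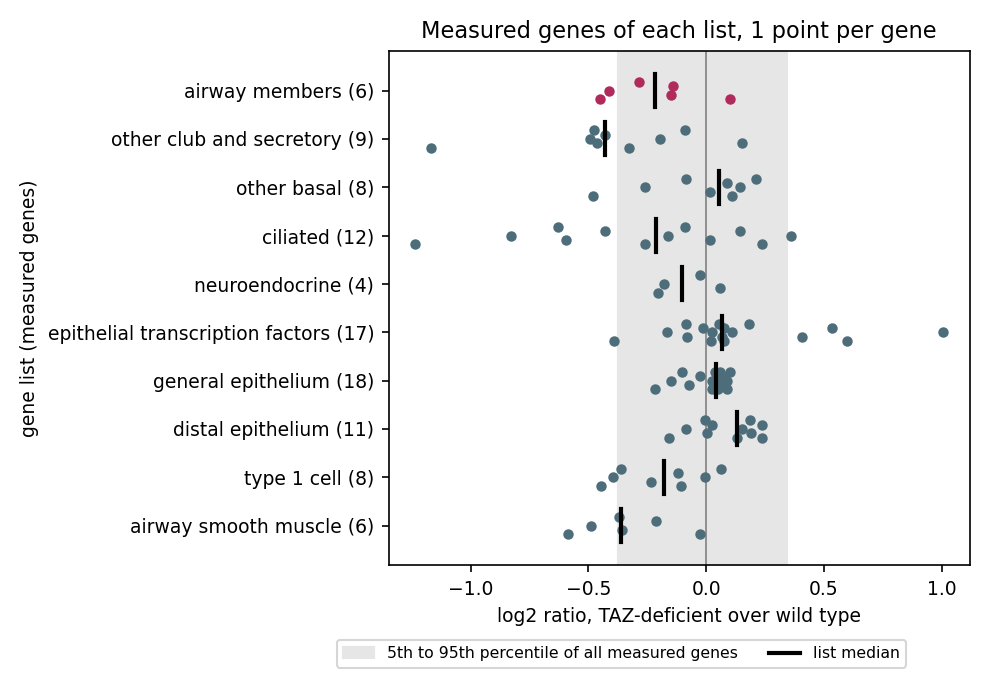
Log2 ratio (TAZ-deficient over wild type) for each measured gene (1 point) of 10 lists, with the list median as a bar and the number of measured genes in parentheses; the grey band runs from the 5th to the 95th percentile of all measured genes (-0.37 to 0.34). The medians of the airway members and of the other club genes are -0.22 and -0.43, and those of general and distal epithelium 0.04 and 0.13.

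Genes listed for other cell types of the airway wall were partly lower in the same pool. Among all measured genes 52.9% were lower, 10.6% at least 1.2-fold lower and 8.01% at least 1.2-fold higher. Of 12 measured ciliated cell genes, 8 were lower, 5 of them at least 1.2-fold, and 1 was at least 1.2-fold higher, with a median of -0.21, and their summed signal was 850.5 and 691.8. Dynlrb2, Cfap126, Ccno and Rsph1, genes of motile cilia and of their formation, were 2.35-fold, 1.78-fold, 1.55-fold and 1.51-fold lower, while Rfx3, a transcription factor of ciliogenesis, was 1.28-fold higher (120.8 and 155.0) and Foxj1, the regulator of motile cilia, read 32.2 and 32.6. Rfx3 and Foxj1 were named after their values were seen. All 6 genes listed for airway smooth muscle were lower, 4 of them at least 1.2-fold, with a median of -0.36 and a summed signal of 3959.6 and 3658.7. Cnn1, calponin, was 1.5-fold lower (118.6 and 79.0). The brightest, Acta2, was close to wild type at 2749.2 and 2701.5 (1.02-fold lower), and was named after its values were seen. RNA of whole lung cannot assign these genes to the airway wall. Cartilage genes had a median of 0.25, with 4 of 5 measured genes higher, 3 (Acan, Matn1 and Comp) below the floor and a summed signal of 477.2 and 530.4, Matn3 being 1.83-fold lower. Of 4 measured neuroendocrine genes 0 were 1.2-fold different (median -0.10), the brightest being Ddc (163.4 and 160.3) and Uchl1 (147.2 and 153.3). Oesophagus and thyroid genes were below the floor except Krt6a (17.2 and 7.2) and Cnfn (17.3 and 10.4), with a summed signal of 34.5 and 17.6. The part of smooth muscle or ciliated cells in the lower club cell signals was not tested.

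Among claudins, Cldn10 was not set apart by its ratio. Of 13 measured claudins 7 were lower and 6 higher, where 52.9% and 46.8% of all measured genes were. Claudin log2 ratios ran from -0.74 for Cldn23 (26.4 and 15.8) to 0.27 for Cldn4 (127.4 and 153.4). Cldn18, the lung claudin, read 916.5 and 946.6, with a second probe set at 552.5 and 505.3, and Cldn6 read 640.2 and 748.8. The keratins of simple epithelium were close to wild type, Krt8 at 977.5 and 960.7, Krt18 at 775.1 and 803.2, Krt7 at 498.8 and 511.9 and Krt19 at 490.8 and 441.9. Krt23 was 1.62-fold higher (24.0 and 38.8), and Krt6a (17.2 and 7.2) was at least 1.13-fold lower, a bound only.

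The signs of the 6 measured members held under every processing that gave them a value. Each processing reuses the same 2 arrays, and some cannot move a given gene. For Scgb3a2, either other floor and the median over probe sets left the log2 ratio at -0.41. Scgb3a2 had log2 ratios between -0.46 and -0.40 over 7 alternatives and Cyp2f2 between -0.45 and -0.36 over 6. Scgb1a1 ran from -0.83 to -0.23 over 6, being 1.78-fold lower when the floor was 4.3 signal units, the 25th percentile, where its TAZ-deficient value is above the floor. Of the 6 measured genes only Sox2 and Aldh1a1 have a probe set without a suffix for shared transcripts. That of Cldn10 (_s_at) can include other genes, and those of Scgb3a2, Scgb1a1 and Cyp2f2 (_a_at) stand for transcripts of the same gene.

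**Figure D4:**
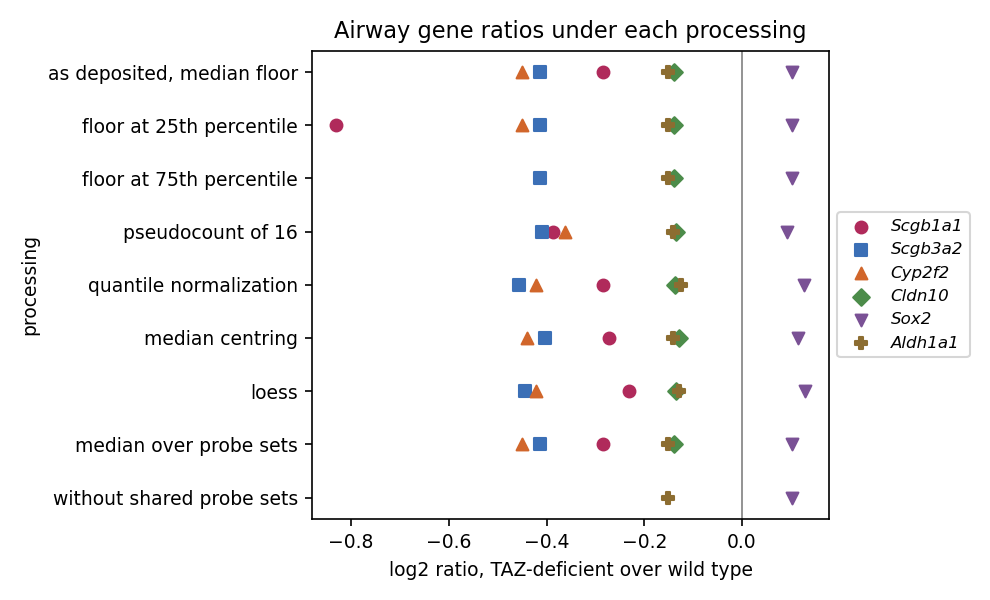
Log2 ratio (TAZ-deficient over wild type) of the 6 measured airway genes (1 symbol each) under the processing used and 8 alternatives; a gene without a symbol had no measured probe set there. Sox2 stays right of 0 and the other 5 left of 0, and Scgb1a1 moves most, to -0.83 with the lowest floor.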

How the data were processed

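Pooled RNA of 4 wild type and of 4 TAZ-deficient lungs was measured on 1 Affymetrix array each. The deposited values are linear intensity values per probe set; GCOS and MAS5 are named per the submitters' processing notes, and both arrays had a mean of 100.001 after removal of the lowest and highest 2% of values. The table had 45101 probe sets, 64 of them controls. Probe sets naming several genes (932) or none (9160) were not used, and symbols were updated by Entrez identifier to GRCm38.p6. Each gene was represented by its probe set of highest mean log2 signal. Values below the floor of 15.2 were set to it before the log2 ratio was taken. Calls are folds of at least 1.2 and 1.5 and no test was made. The genes named are the members, up to 4 genes per other list that were 1.5-fold different or otherwise the 2 brightest, and measured members of the claudin, keratin and aldehyde dehydrogenase families; genes named outside this rule were chosen after their values were seen. The members and lists were chosen with earlier results of these data known. The 8 alternatives cover the floor, a pseudocount of 16, scaling and the choice of probe sets. Analysis used Python 3.11.15, pandas 2.3.3 and statsmodels 0.14.6 (loess fraction 0.2), and the log2 ratios were checked on simulated data. Precision is limited by the number of arrays, 1 per group.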

Additional observations from a re-analysis of the deposited data

How the results depend on the processing

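No paired analysis was possible because each group is 1 pool on 1 array, and leaving out an array leaves no comparison. The signs of the 6 measured members held under every alternative that measured them, and 5 of these 6 moved by less than the probe set SD of 0.19, the exception being Scgb1a1 (-0.83 for a floor at the 25th percentile). The alternatives reuse the same 2 arrays and do not stand in for replicates. The members' median log2 ratio was -0.025 without shared probe sets, where 2 members, Sox2 and Aldh1a1, were measured, 1 was below 0 and 0 were 1.2-fold lower. Under that lowest floor all 10 members were measured, 2 were at least 1.5-fold lower (Krt15 and Scgb1a1), 1 was at least 1.5-fold higher (Trp63) and 2 at least 1.2-fold higher (Trp63 and Krt5), all values that lie below the floor used here on at least 1 array. Under a floor at the 75th percentile 3 members were below 0 and 1 was at least 1.2-fold lower, since fewer genes were measured. The median of the other club genes was above 0 (0.061) under this highest floor, on 2 genes, and below 0 under the other 7 alternatives. Of those 2 genes, Lypd2 had its TAZ-deficient value set to the floor. The medians of the general epithelium, distal epithelium, transcription factor, basal, ciliated, type 1 cell, Notch, smooth muscle and cartilage lists kept their sign under all 8 alternatives. Dim signals limit the basal cell genes, Scgb1a1 and Scgb3a1 most.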
